A study of Homo sapiens with 24 samples.

Results

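The cells were A2780, an established line from a human epithelial ovarian cancer. The comparison described here asked how far the response of these cells to low oxygen differed after 48 hr from the response after 6 hr. Its members were 8 of the 24 samples of the series, taken by label from the 12 total RNA libraries: normoxia at 6 hr (libraries 1 and 2), hypoxia at 6 hr (3 and 4), normoxia at 48 hr (5 and 6) and hypoxia at 48 hr (7 and 8). Hypoxia was 1% oxygen in an oxygen-controlled chamber, and the controls were kept at normal oxygen for the same time. No group carried a transgene or a drug, all came from the same cell line, and all grew in RPMI 1640 medium with serum and gentamicin. The other 4 total RNA libraries were normoxia and hypoxia at 6 days, and the remaining samples are a precursor miRNA table of the same 12 libraries, not analysed here for changes. Nothing in the labels tells whether paired libraries were grown as separate cultures; the p-values thus reflect only the spread among these libraries, which may be technical.

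Cells sense oxygen through prolyl hydroxylases, which mark the alpha subunits of hypoxia-inducible factor (HIF) for destruction while oxygen is present. In low oxygen HIF alpha persists, pairs with its beta subunit and binds the core sequence ACGTG or GCGTG near its target genes, which include glycolytic enzymes, glucose transporters and pH regulators. Long or severe hypoxia can also engage the integrated stress response, in which phosphorylation of the translation factor eIF2 favours translation of the transcription factor ATF4 and its targets.

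The values were RPKM, reads per kilobase per M (1e6) reads, for 22446 gene symbols. For each gene the effect of hypoxia was the difference between the means of the hypoxia and normoxia libraries on the scale log2(RPKM + 0.5). The quantity reported throughout is the effect at 48 hr minus the effect at 6 hr, called the difference of effects. A difference of 1 stands for a 2-fold larger ratio of hypoxia to normoxia at 48 hr on that scale. For genes with a group under about 1 RPKM the pseudocount of 0.5 shrinks each effect, and the difference of effects can then be smaller or larger than on the RPKM scale itself. A gene was tested when 2 or more of the 12 libraries reached 1 RPKM, which held for 11933, with limma, and a gene was called when its Benjamini-Hochberg adjusted p was under 0.05.

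Read totals inferred from the precursor table were 26.1 to 51.9 M for the 8 libraries. Libraries of a group had a Pearson r of 0.989 to 0.995 over tested genes (genes are not independent replicates). Libraries 1 and 2 stood farthest apart: the median gene differed by 0.204 (log2) between them and by 0.0886 to 0.126 within other groups. Library 4 (hypoxia at 6 hr) stood apart in 13 genes, each at least 4-fold above every other library, among them the globin genes HBB (20.2 RPKM) and HBA2 (9.05 RPKM). The summed level of 9 erythroid markers was 30.9 RPKM in library 4 and at most 2.76 RPKM in any other, and that of 12 leukocyte markers was 3.50 against at most 1.06 RPKM. Of the 13 genes, 1 was tested and none was called for the difference of effects. Genes high in library 4 alone seldom meet the filter of 1 RPKM in 2 libraries, so this count was largely fixed in advance. Over the called genes library 4 minus library 3 had a median of -0.01 (log2, -0.52 to 0.37). The part of the RNA behind these 13 genes in the result was not tested. Of 16 epithelial and ovarian carcinoma markers, 4 were tested: EPCAM lay at 33.2 to 42.2 RPKM and KRT18 at 23.7 to 38.2 RPKM over the 12 libraries, while PAX8, KRT7, CDH1 and MUC16 stayed under 0.1 RPKM in each. Fibroblast markers summed to 256 to 330 RPKM in the 6 libraries other than hypoxia at 48 hr and to 385 and 388 RPKM in those 2. TAGLN, an actin-binding protein, made up much of this, with 166 and 169 RPKM there against 89.1 to 119 RPKM in the 6. LUM, DCN and ACTA2 also lay above the 6, at lower levels. POSTN (155 and 152 RPKM), THY1 (7.96 and 8.22 RPKM) and COL3A1 (3.65 and 3.33 RPKM) lay within their range. The remaining fibroblast markers were under 1 RPKM in hypoxia at 48 hr.

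Nearly all called differences of effects were positive, while over all tested genes negative differences were slightly more common. The difference of effects was called for 63 of 11933 genes (0.528%), higher at 48 hr for 61 (0.511%) and lower for 2 (0.0168%). At an unadjusted p under 0.05 there were 1287 genes (10.8%), 709 higher (5.94%) and 578 lower (4.84%). Without library 1 the calls were 69 higher and 41 lower. In these bulk libraries fewer cells expressing a gene and less RNA per cell cannot be told apart. The median difference over all tested genes was -0.02, with 46.1% above 0. Each of the 63 kept its sign in all 16 choices of 1 library per group, which 11.3% of tested genes did upward and 11.8% downward. Of the 63, 5 were short RNAs, described apart below, which left 57 genes higher and 1 lower.

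**Figure D1:**
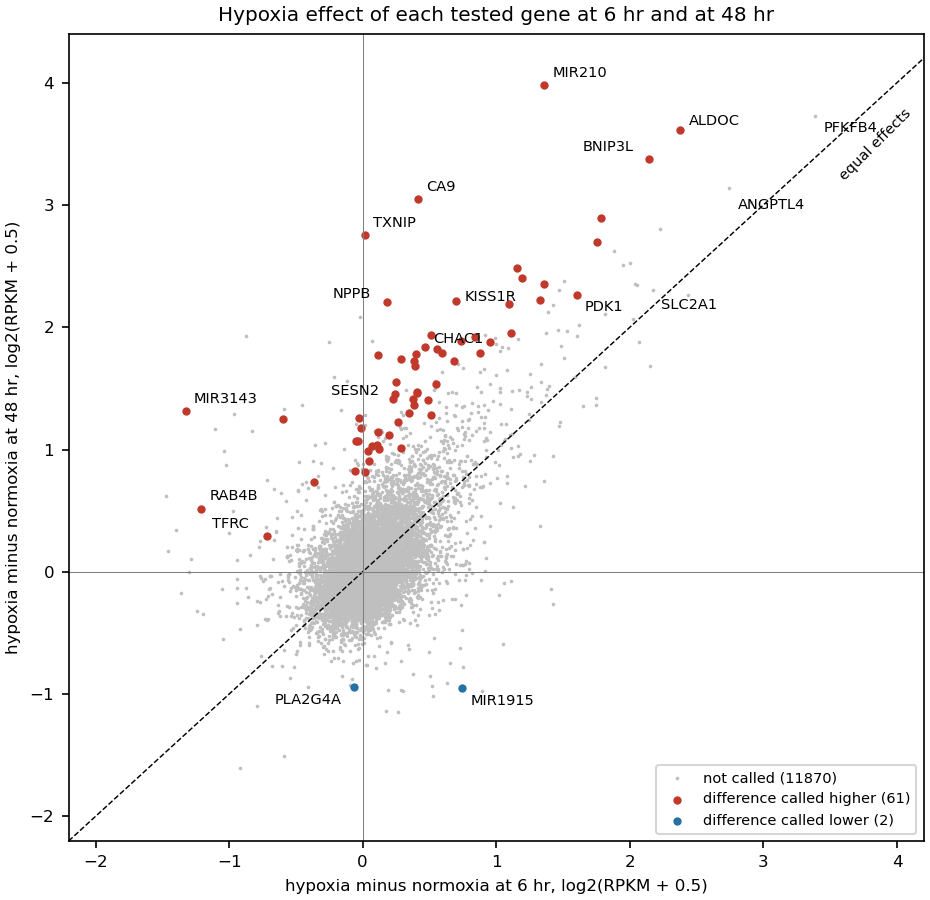
Effect of hypoxia at 6 hr (horizontal) and at 48 hr (vertical) for each of the 11933 tested genes, as differences of mean log2(RPKM + 0.5). Red points are the 61 genes called higher for the difference of effects, blue points the 2 called lower, grey points the other 11870, and the dashed line marks equal effects; the red points lie above the line.

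At 6 hr 428 genes were called for hypoxia against normoxia (3.59%), 404 higher and 24 lower, and at 48 hr 1448 (12.1%), 1103 higher and 345 lower. The share of higher calls, 94.4% at 6 hr and 76.2% at 48 hr, was 76.1% and 57.9% after quantile normalization and 76.0% and 55.8% after centring of each library. The wider set of calls at 48 hr did not mean a called difference for each gene: of the 1097 genes called at 48 hr and not at 6 hr, 37 were called for the difference of effects, and of the 428 called at 6 hr, 26 were. Among the 57 higher genes, 21 were called higher at 6 hr, 2 were called lower and 34 were not called. Of the same 57, 55 were called higher at 48 hr, where 9.24% of all tested genes were. The 48 hr effect is part of the difference that chose these genes, so the choice itself favoured this count. The median effect of the 57 was 0.39 at 6 hr and 1.68 at 48 hr.

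The difference of effects can be split into the change between 6 and 48 hr in hypoxia and the same change in normoxia. In hypoxia the change with time was positive for all 57 higher genes and passed the test for 56 of them (background 4.94% called higher), with a median of 1.07 and a range of 0.47 to 2.64. In normoxia it passed for none of the 57 by limma, with 11 at an unadjusted p under 0.05, 6 of those positive (background 0.0922% called, 0.00838% higher and 0.0838% lower), a median of -0.02 and a range of -0.72 to 0.59. BST2 was the 1 gene of the 57 whose change with time was larger in normoxia than in hypoxia. On these values the difference of effects of the 57 genes lay mainly in the change in hypoxia. The genes were chosen by that difference, which holds both changes. The choice thus favoured a positive change in hypoxia, and the counts only describe these genes.

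**Figure D2:**
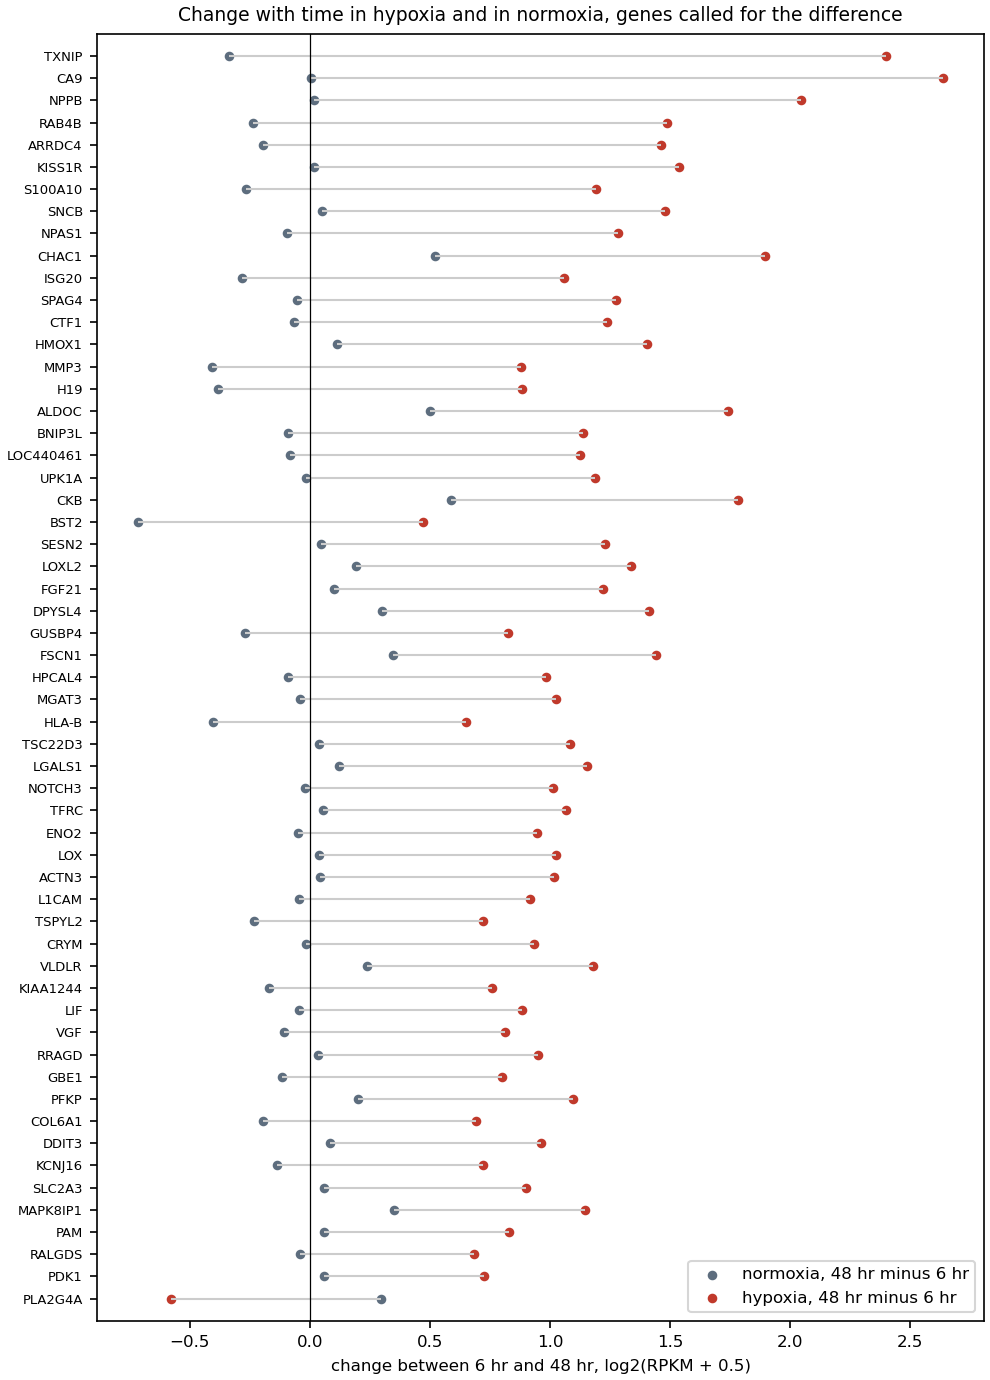
Change from 6 hr to 48 hr in normoxia (grey) and in hypoxia (red), on the log2(RPKM + 0.5) scale, for the called genes shown, none of them short RNAs, ordered by the difference of effects. Red points of the higher genes lie between 0.47 and 2.64 and grey points between -0.72 and 0.59; for PLA2G4A, at the bottom, the order of the points is turned.

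The largest difference of effects belonged to TXNIP, the thioredoxin-interacting protein, which limits glucose uptake and whose transcription is known to follow glucose metabolites through the factor MondoA. TXNIP stood at 7.23 and 5.40 RPKM in normoxia and at 5.51 and 7.28 RPKM in hypoxia at 6 hr, so the groups overlapped. At 48 hr it stood at 4.79 and 4.91 RPKM in normoxia and at 37.9 and 33.4 RPKM in hypoxia, far above the other 6 libraries. The effect was 0.02 at 6 hr and 2.75 at 48 hr, a difference of 2.73 (SE 0.20, adjusted p = 0.000353). ARRDC4, an arrestin-family relative of TXNIP and another known MondoA target, had the same shape: 1.59 and 1.35 RPKM in normoxia and 1.62 and 1.64 RPKM in hypoxia at 6 hr, then 1.24 and 1.19 RPKM in normoxia and 5.84 and 4.93 RPKM in hypoxia at 48 hr. Its difference of effects was 1.66 (SE 0.14, adjusted p = 0.000599). Both passed with any 1 of the 8 libraries left out. Of other arrestin-family genes, chosen after their values were seen, ARRDC3 had a difference of 0.54 (95% interval 0.20 to 0.88, adjusted p = 0.225) and ARRDC2 one of 0.04 (-0.43 to 0.51). The list of 15 tested genes of the MYC, MAX and Mondo network held these 2 calls (13.3% against 0.511% of all tested genes called higher). Its median difference was 0.14. MYC itself lay at 25.1 to 29.1 RPKM in normoxia, at 27.6 and 25.9 RPKM in hypoxia at 6 hr and at 35.3 and 33.1 RPKM in hypoxia at 48 hr, a difference of 0.31 (upper bound 0.63) that did not pass.

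The promoter of TXNIP is shown for its carbohydrate response motif, the paired E-box to which MondoA and its relative ChREBP are known to bind. The 250 bases before the RefSeq start of TXNIP (GRCh38.p14, chr1:145996580-145996829, minus strand) hold 1 match to CACGNG and CNCGNG spaced by 5 bases of any kind, given in capitals, 88 to 72 bases before the start.
TXNIP: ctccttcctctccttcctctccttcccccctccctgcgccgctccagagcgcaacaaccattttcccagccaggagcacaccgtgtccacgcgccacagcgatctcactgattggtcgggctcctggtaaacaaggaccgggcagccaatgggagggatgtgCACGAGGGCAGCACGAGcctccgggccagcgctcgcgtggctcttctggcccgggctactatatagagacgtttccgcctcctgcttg
RefSeq windows of 300 bases (250 before to 50 after the start) were found for 35 of the 57 higher genes. Of those 35, 2 held this motif on either strand, TXNIP and RALGDS, against 0.619% of the 27305 genes with a window. The motif was chosen for TXNIP, so that match was fixed in advance and the count is no test. ARRDC4 had a window and held no match in it.

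HIF targets made up the largest listed group. Of 65 listed genes 59 were tested, and 10 were called higher for the difference of effects (16.9% against 0.511% of all tested genes), among them TXNIP, CA9, SPAG4, BNIP3L, LOXL2, TFRC, LOX, VLDLR and GBE1. None was called lower, 54 of the 59 differences were above 0, and the median was 0.37 against -0.02 over all tested genes. The list was chosen with earlier results of these libraries known, so its count is a description. Its members were called higher for hypoxia in 43 of 59 cases at 6 hr and in 53 at 48 hr. Of all tested genes 3.39% and 9.24% were called higher at those times. In this list 1 member was called lower at 6 hr and 0 at 48 hr. The median effect went from 1.06 to 1.40.

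CA9, a carbonic anhydrase at the cell surface that takes part in pH regulation, had the second largest difference of effects in this list, after TXNIP. It read 0.0248 and 0 RPKM in normoxia and 0.151 and 0.217 RPKM in hypoxia at 6 hr. At 48 hr the values were 0.0158 and 0.0139 RPKM in normoxia and 4.48 and 3.13 RPKM in hypoxia. All 6 other libraries were under 0.25 RPKM, so hypoxia at 48 hr was the only group of the 4 with a clear level. The difference of effects was 2.63 (SE 0.21, adjusted p = 0.000353), and at 6 days, in libraries outside the comparison, CA9 stood at 7.75 and 8.57 RPKM in hypoxia against 0.0431 and 0.0638 RPKM in normoxia.

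The CA9 promoter is shown for its HIF core. The 250 bases before the RefSeq start (GRCh38.p14, chr9:35673678-35673927, plus strand) hold ACGTG on the opposite strand, read here as CACGT in capitals, 18 to 14 bases before the start.
CA9: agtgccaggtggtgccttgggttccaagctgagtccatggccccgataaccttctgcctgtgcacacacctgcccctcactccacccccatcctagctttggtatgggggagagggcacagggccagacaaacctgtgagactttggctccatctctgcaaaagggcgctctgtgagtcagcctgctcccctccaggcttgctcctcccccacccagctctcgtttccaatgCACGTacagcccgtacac
On either strand, ACGTG was present in 16 of the 35 higher genes with a window (45.7%) and in 24.9% of all 27305 genes, and GCGTG in 20 (57.1%) and 40.6%. At least 1 of these 2 cores was present in 25 of the 35 (71.4%) and in 52.4% of all genes. The 27305 genes include many not tested here, and only 35 of the 57 higher genes had a window. The shares thus compare unlike sets, also for the other motifs shown, and were not tested. A match describes letters in a window and shows no binding.

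BNIP3L, a receptor for the removal of mitochondria by autophagy, rose at both times. It read 3.00 and 3.11 RPKM in normoxia and 14.1 and 16.4 RPKM in hypoxia at 6 hr, then 2.90 and 2.77 RPKM in normoxia and 36.4 and 31.8 RPKM in hypoxia at 48 hr. The groups did not overlap at either time, and the effect went from 2.14 to 3.37, a difference of 1.23 (SE 0.14, adjusted p = 0.00402). Its relative BNIP3 went from 68.1 and 61.3 RPKM in hypoxia at 6 hr to 146 and 133 RPKM at 48 hr, while normoxia was 16.3 and 16.4 RPKM and then 22.4 and 25.8 RPKM. For BNIP3 the difference was 0.56 (0.22 to 0.90, adjusted p = 0.20) and did not pass. SPAG4, a protein of the nuclear envelope, had effects of 1.15 and 2.48 (difference 1.33, SE 0.14, adjusted p = 0.00208), with 1.49 and 1.49 RPKM in hypoxia at 6 hr and 4.39 and 4.27 RPKM at 48 hr.

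TFRC, the receptor for iron-loaded transferrin, had a different shape, because its effect at 6 hr was negative. It read 102 and 81.7 RPKM in normoxia and 55.2 and 55.6 RPKM in hypoxia at 6 hr. At 48 hr the values were 94.6 and 95.3 RPKM in normoxia and 122 and 112 RPKM in hypoxia. TFRC fell at 6 hr (effect -0.72, adjusted p = 0.00348) and had an effect of 0.29 at 48 hr that did not pass (adjusted p = 0.114), a difference of 1.01 (SE 0.16, adjusted p = 0.0158). The difference lost its call without library 3, 4, 5, 6 or 7, with a highest adjusted p of 0.118. At 6 days the effect was 2.53, with 75.8 and 76.6 RPKM in hypoxia against 13.2 and 12.5 RPKM in normoxia. HMOX1, which degrades heme and releases its iron, was the other of 19 tested iron genes to be called: 7.51 and 6.58 RPKM in hypoxia at 6 hr, 21.0 and 18 RPKM in hypoxia at 48 hr, and 4.72 to 5.84 RPKM in normoxia. Its difference was 1.29 (SE 0.19, adjusted p = 0.0143). The median over the iron list was -0.03.

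RAB4B, a small GTPase of endosomes, was the other gene called at 6 hr alone, with 1.04 and 1.19 RPKM in normoxia and 0.157 and 0.241 RPKM in hypoxia at 6 hr. At 48 hr it read 0.879 and 0.855 RPKM in normoxia and 1.46 and 1.45 RPKM in hypoxia, a difference of 1.72 (adjusted p = 0.0456). Its call was lost in all 8 fits that left out 1 library, and its reads can be shared with a readthrough transcript that joins it to a neighbouring gene.

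The matrix genes LOX and LOXL2, which cross-link collagen and elastin, and COL6A1, a collagen VI chain, were called among 26 tested matrix genes. That was 11.5% against 0.511% of all tested genes called higher, and the median difference of the list was 0.21. LOX read 0.509 and 0.556 RPKM in hypoxia at 6 hr and 1.82 and 1.40 RPKM at 48 hr, with 0.177 to 0.235 RPKM in the 4 normoxia libraries, a difference of 0.98 (adjusted p = 0.0349). LOXL2 read 1.26 and 1.25 RPKM and then 4.03 and 3.84 RPKM in hypoxia, against 0.532 to 0.868 RPKM in normoxia, a difference of 1.15 (adjusted p = 0.0143). In each gene hypoxia at 48 hr stood above all 6 other libraries. COL6A1 had a difference of 0.88 (adjusted p = 0.0352), with 0.709 to 1.12 RPKM in those 6 libraries and 1.78 and 2.20 RPKM in hypoxia at 48 hr. The fibroblast marker sum given above was also highest in hypoxia at 48 hr. None of the 7 tested fibroblast markers was called for the difference. At an unadjusted p under 0.05 (limma) 3 were higher (42.9% against 5.94% of all tested genes) and 1 lower (14.3% against 4.84%). The part of these markers in the result was not tested. Leaving out 1 library ended the call of COL6A1 in 7 of 8 fits, of LOX in 6 and of LOXL2 in 3, with a highest adjusted p of 0.184.

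MMP3, stromelysin-1, a protease that cleaves matrix proteins, was the most abundant called gene. It read 163 and 143 RPKM in normoxia and 149 and 151 RPKM in hypoxia at 6 hr, and 124 and 108 RPKM in normoxia and 297 and 257 RPKM in hypoxia at 48 hr. The groups overlapped at 6 hr and not at 48 hr, and the difference was 1.29 (SE 0.17, adjusted p = 0.00834). Its relatives MMP10 and MMP1, chosen after their values were seen, had differences of 0.67 (0.25 to 1.10, adjusted p = 0.225) and 0.59 (0.20 to 0.98, adjusted p = 0.244), which did not pass.

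**Figure D3:**
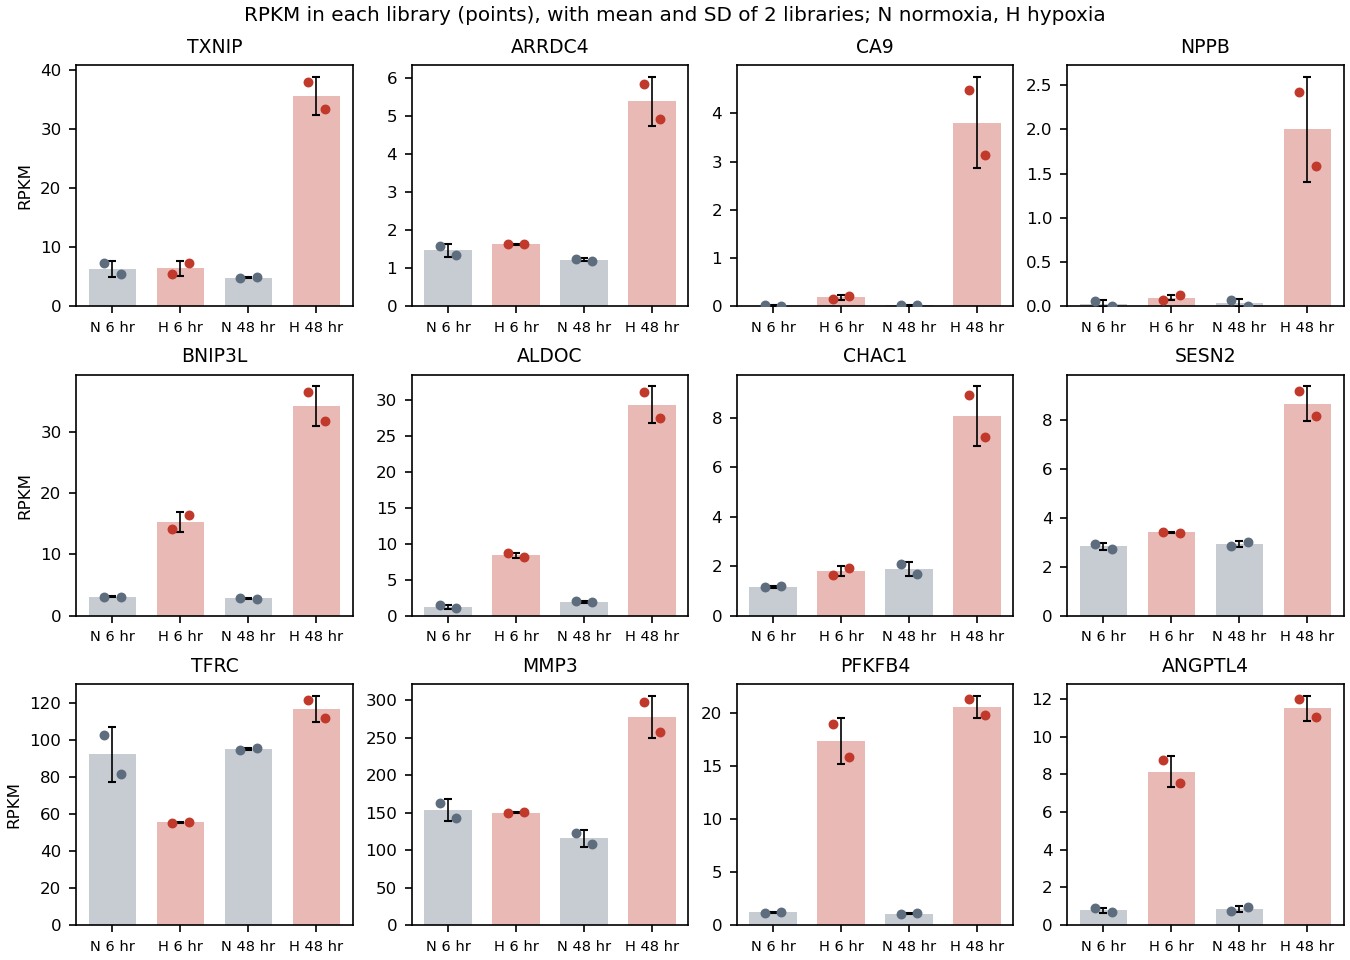
RPKM in each of the 8 libraries for 12 genes (points), with the mean (bars) and SD of the 2 libraries of each group; N is normoxia and H hypoxia, and each panel has its own linear axis from 0. TXNIP, ARRDC4, CA9 and NPPB stand high in hypoxia at 48 hr alone, BNIP3L and ALDOC in steps, while PFKFB4 and ANGPTL4 reach most of their level by 6 hr.

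Of the 59 tested HIF targets 49 were not called. At an unadjusted p under 0.05, 30 of the 59 were higher (50.8% against 5.94% of all tested genes) and none lower, and 34 were above 0 in all 16 choices of 1 library per group (11.3% of all genes were). Some others had effects at 48 hr close to those at 6 hr. ADM, the vasodilator peptide adrenomedullin, read 13.4 and 12.9 RPKM in hypoxia at 6 hr and 15.0 and 12.6 RPKM at 48 hr, with 2.80 to 2.99 RPKM in normoxia. The hypoxia libraries of both times overlapped, and the difference was 0.04 (95% interval -0.33 to 0.41). For VEGFA, the main angiogenic growth factor, it was 0.06 (-0.30 to 0.41), for the prolyl hydroxylase EGLN1 0.05 (-0.32 to 0.42), for the sterol regulator INSIG2 -0.17 (-0.53 to 0.18) and for the histone demethylase KDM3A 0.22 (-0.23 to 0.67). These 5 intervals include 0 and do not show that the effects were equal. For PFKFB4, ANGPTL4, NDRG1 and DDIT4 the interval lay above 0, although none passed after adjustment. PFKFB4 and ANGPTL4, with the largest effects at 6 hr among these, read 18.9 and 15.9 RPKM and 8.74 and 7.56 RPKM in hypoxia at 6 hr, and 21.3 and 19.8 RPKM and 12 and 11 RPKM at 48 hr. Their differences were 0.34 (0.04 to 0.64, adjusted p = 0.389) and 0.40 (0.03 to 0.76, adjusted p = 0.41). NDRG1 and DDIT4 had differences of 0.56 (0.19 to 0.94) and 0.52 (0.15 to 0.89).

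HIF1A, the oxygen-regulated subunit itself, read 13.3 to 21.3 RPKM in the 8 libraries, with no group apart from the others, and had a difference of -0.19 (-0.78 to 0.40). EPAS1 (HIF-2 alpha) and EGLN3 were under 1 RPKM in every library and were not tested. Of 16 tested oxygen-sensing genes none was called by limma, with 1 lower at an unadjusted p under 0.05 and a median of -0.04.

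**Figure D4:**
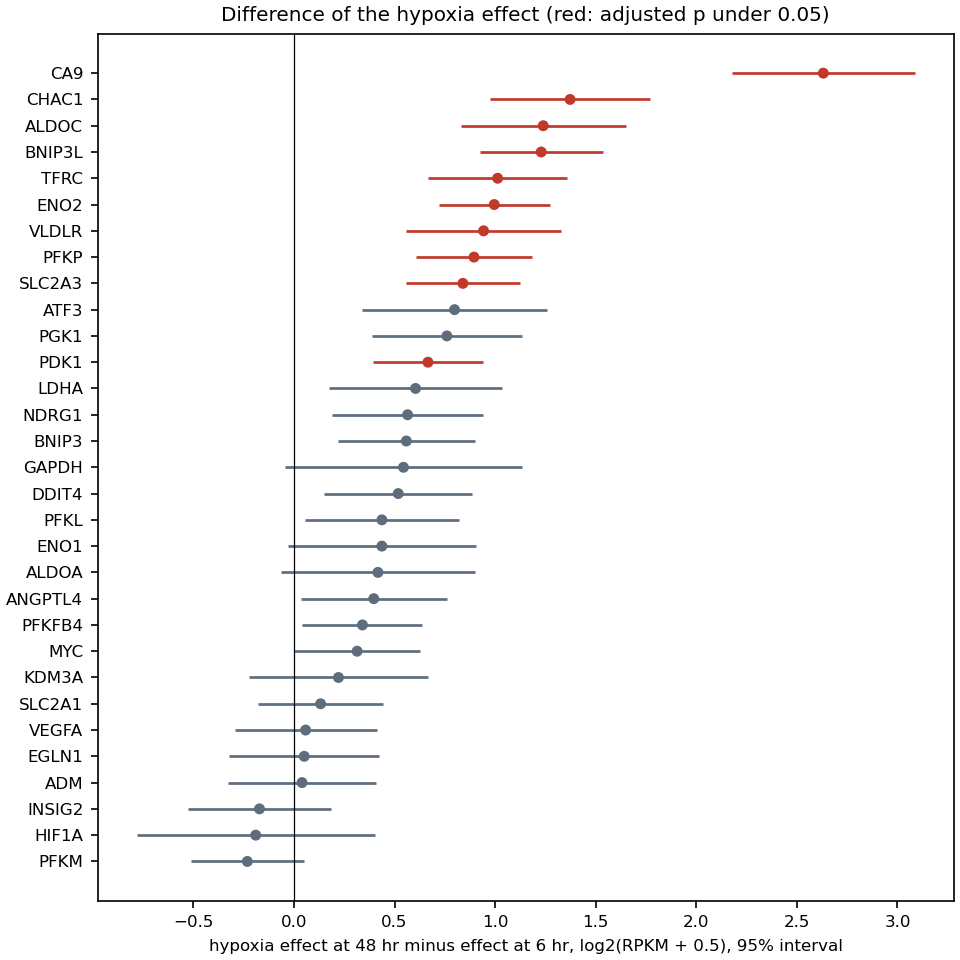
Difference of effects (48 hr minus 6 hr, log2(RPKM + 0.5)) with its 95% interval for 31 HIF, glycolytic and stress-response genes; red marks an adjusted p under 0.05. CA9 lies at 2.63. The intervals that include 0 are among others those of SLC2A1, VEGFA, EGLN1, ADM, INSIG2, KDM3A, HIF1A, ALDOA, ENO1 and PFKM.

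Glycolytic genes differed in whether the difference was called. Of 28 tested glycolytic genes 5 were called higher for the difference (17.9% against 0.511% of all tested genes) and none lower. In this list 22 differences were above 0 and the median was 0.44, the effect going from 0.62 at 6 hr to 1.16 at 48 hr. ALDOC, an aldolase isoform best known from brain, read 1.44 and 1.02 RPKM in normoxia and 8.67 and 8.18 RPKM in hypoxia at 6 hr. At 48 hr it read 2.02 and 1.84 RPKM in normoxia and 31.2 and 27.5 RPKM in hypoxia, a difference of 1.24 (SE 0.19, adjusted p = 0.0152). Hypoxia stood apart from normoxia at both times, and the 48 hr pair above the 6 hr pair. ENO2, the neuronal enolase, read 25.9 and 23.9 RPKM and then 50.8 and 46.0 RPKM in hypoxia, with 8.85 to 9.53 RPKM in normoxia, and a difference of 1.00 (SE 0.13, adjusted p = 0.00633). PFKP, the platelet phosphofructokinase, went from 22.8 and 19.9 RPKM to 45.9 and 46.3 RPKM in hypoxia, with 8.00 to 9.73 RPKM in normoxia, and a difference of 0.89 (adjusted p = 0.0136). SLC2A3 is the glucose transporter GLUT3, and it went from 11.6 and 11.2 RPKM to 23.5 and 20.1 RPKM in hypoxia, with 4.93 to 5.47 RPKM in normoxia, and a difference of 0.84 (adjusted p = 0.0158). PDK1, which inhibits pyruvate dehydrogenase by phosphorylation, had 11.1 and 11.4 RPKM and then 19.1 and 18.9 RPKM in hypoxia, and a difference of 0.67 (adjusted p = 0.0456).

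Other isoforms of the same steps were not called; apart from SLC2A1 and LDHA they were chosen after their values were seen. SLC2A1, the glucose transporter GLUT1, read 20.03 and 17.8 RPKM in hypoxia at 6 hr and 21.5 and 19.99 RPKM at 48 hr, a difference of 0.13 (-0.18 to 0.44). ALDOA had a difference of 0.42 (-0.06 to 0.90), ENO1 of 0.44 (-0.03 to 0.90), PFKL of 0.44 (0.05 to 0.82) and PFKM of -0.23 (-0.51 to 0.05). LDHA, which turns pyruvate into lactate, read 386 and 368 RPKM and then 598 and 572 RPKM in hypoxia and had a difference of 0.60 (0.17 to 1.04, adjusted p = 0.275). HK2, the inducible hexokinase, had an effect of 1.59 at each time and a difference between -0.31 and 0.31 (95% interval). Called and uncalled isoforms were not tested against each other. With 1 library left out, ENO2 kept its call in 7 of 8 fits, ALDOC, PFKP and SLC2A3 in 3 and PDK1 in 1, with adjusted p of at most 0.231.

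GBE1, the glycogen branching enzyme, was called among 17 tested glycogen genes. Its values were 12.7 and 13.7 RPKM in hypoxia at 6 hr, 25.4 and 21.5 RPKM at 48 hr and 8.12 to 10.6 RPKM in normoxia. The difference was 0.91 (adjusted p = 0.0466), and the median of the glycogen list was -0.11. Without 1 library at a time the difference of GBE1 ran from 0.73 to 1.09, and its call did not hold in every fit.

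Genes of the ATF4 stress response had small effects at 6 hr in the median, with exceptions such as VLDLR (1.76). Of 40 tested, 5 were called higher (12.5% against 0.511% of all tested genes), none lower, and 38 differences were above 0, with a median of 0.32. The median effect was 0.07 at 6 hr and 0.44 at 48 hr, with 7 and 20 members called higher at those times, where 3.39% and 9.24% of all tested genes were. CHAC1, which degrades glutathione and is a known target of ATF4, read 1.14 and 1.18 RPKM in normoxia and 1.65 and 1.94 RPKM in hypoxia at 6 hr. At 48 hr the values were 2.09 and 1.69 RPKM in normoxia and 8.91 and 7.20 RPKM in hypoxia, a difference of 1.37 (SE 0.18, adjusted p = 0.00734). Hypoxia at 48 hr was thus the group that stood apart. SESN2, a stress-induced sestrin that restrains mTORC1, went from 3.42 and 3.39 RPKM in hypoxia at 6 hr to 9.18 and 8.16 RPKM at 48 hr, with 2.72 to 3.03 RPKM in normoxia, and had a difference of 1.18 (SE 0.12, adjusted p = 0.00226). DDIT3, the transcription factor CHOP, read 3.63 and 3.59 RPKM and then 8.44 and 6.69 RPKM in hypoxia, against 3.71 to 4.32 RPKM in normoxia, and had a difference of 0.88 (adjusted p = 0.0296). FGF21, a secreted metabolic hormone, was under 0.15 RPKM in 6 libraries and at 0.777 and 0.767 RPKM in hypoxia at 48 hr, a difference of 1.12 (adjusted p = 0.0319). VLDLR, a lipoprotein receptor, is in the HIF list too: it read 2.22 and 1.81 RPKM and then 5.64 and 4.74 RPKM in hypoxia, with 0.186 to 0.378 RPKM in normoxia, and had a difference of 0.94 (adjusted p = 0.0446).

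ATF4, TRIB3 and ASNS were chosen after their values were seen. ATF4 mRNA itself had a difference of 0.44 (0.06 to 0.83, adjusted p = 0.386), TRIB3 of 0.56 (0.20 to 0.92), ATF3 of 0.80 (0.34 to 1.26, adjusted p = 0.168) and ASNS of 0.51 (-0.15 to 1.17), and none passed. Neither the 20 tested tRNA synthetases (median -0.09) nor the 32 endoplasmic reticulum chaperone and unfolded protein genes (median -0.04) held a call by limma. At an unadjusted p under 0.05 they held 0 higher and 2 lower, and 1 higher and 3 lower. Of the 5 called stress-response genes SESN2 passed in all 8 fits without 1 library, CHAC1 in 7, DDIT3 in 2, VLDLR in 1 and FGF21 in none.

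CHAC1 and FGF21 are shown together because their promoters hold the composite CEBP-ATF element TGATGNAAN, in capitals and on the opposite strand in both. The 250 bases before the RefSeq start (GRCh38.p14) are chr15:40953221-40953470 for CHAC1 and chr19:48755274-48755523 for FGF21, both on the plus strand, with the element 210 to 202 and 55 to 47 bases before the start.
CHAC1: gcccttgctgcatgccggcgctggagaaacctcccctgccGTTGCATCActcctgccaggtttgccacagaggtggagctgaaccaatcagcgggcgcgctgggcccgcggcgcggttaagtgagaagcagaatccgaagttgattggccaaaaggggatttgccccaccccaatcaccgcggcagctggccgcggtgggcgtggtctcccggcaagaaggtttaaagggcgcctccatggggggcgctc
FGF21: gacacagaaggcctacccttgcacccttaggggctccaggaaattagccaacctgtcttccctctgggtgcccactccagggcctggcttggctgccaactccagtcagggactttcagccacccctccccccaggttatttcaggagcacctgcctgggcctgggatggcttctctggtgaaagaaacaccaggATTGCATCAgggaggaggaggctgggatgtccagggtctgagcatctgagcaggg
These were the 2 of 35 higher genes with a window that held the element (5.71%), against 4.45% of all genes, a share near the background.

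Among secreted factors 2 of 15 tested genes were called higher (13.3% against 0.511% of all tested genes). Of the 15 differences 14 were above 0, with a median of 0.33. NPPB, the precursor of B-type natriuretic peptide, read 0.0553 and 0 RPKM in normoxia and 0.0747 and 0.121 RPKM in hypoxia at 6 hr. At 48 hr it read 0.0703 and 0 RPKM in normoxia and 2.42 and 1.58 RPKM in hypoxia, a difference of 2.03 (SE 0.24, adjusted p = 0.00437). It was near 0 in 6 libraries, and at 6 days it reached 13.7 and 11.1 RPKM in hypoxia while listed at 0 in both normoxia libraries. LIF, a cytokine of the interleukin-6 family, read 4.62 and 4.12 RPKM in hypoxia at 6 hr and 8.69 and 8.27 RPKM at 48 hr, with 3.85 to 4.10 RPKM in normoxia, and had a difference of 0.93 (SE 0.12, adjusted p = 0.00633). At 6 days LIF was lower in hypoxia than in normoxia (effect -0.25, limma adjusted p = 0.029), with 11.3 and 11.5 RPKM against 13.7 and 13.8 RPKM. Both conditions stood above their levels at 48 hr. CTF1, cardiotrophin-1, of the same cytokine family, had 0.894 and 0.760 RPKM and then 2.89 and 2.37 RPKM in hypoxia, and a difference of 1.3 (adjusted p = 0.0296). VGF, a neuropeptide precursor, had a difference of 0.92 (adjusted p = 0.0317), and PAM, the oxygen-using enzyme that amidates peptide hormones, one of 0.77 (adjusted p = 0.0136). Without 1 library at a time NPPB kept its call in all 8 fits, LIF in 7, PAM in 3, VGF in 2 and CTF1 in 1.

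KISS1R, the kisspeptin receptor, had effects of 0.70 at 6 hr and 2.22 at 48 hr, both called, and a difference of 1.52 (SE 0.18, adjusted p = 0.00433) that held in all 8 such fits. It read 0.931 and 0.847 RPKM and then 3.71 and 3.36 RPKM in hypoxia, with 0.273 to 0.448 RPKM in normoxia. NPAS1, a transcription factor of the basic helix-loop-helix and PAS family to which HIF alpha also belongs, had a difference of 1.38 (SE 0.18, adjusted p = 0.00633), with 2.24 and 1.68 RPKM and then 5.41 and 5.46 RPKM in hypoxia. NOTCH3 was the 1 call among 15 tested Notch genes, at 0.378 and 0.348 RPKM and then 1.24 and 1.24 RPKM in hypoxia and 0.262 to 0.323 RPKM in normoxia, a difference of 1.03 (adjusted p = 0.0124). RRAGD, a Rag GTPase that signals amino acids to mTORC1, had a difference of 0.92 (adjusted p = 0.0305), and TSC22D3, a leucine zipper protein known for its induction by glucocorticoids, one of 1.05 (adjusted p = 0.00734). S100A10, the partner of annexin A2, was listed at 0 in both normoxia libraries at 48 hr and at 1.11 and 1.23 RPKM in hypoxia, and at 6 hr at 0.0914 and 0.109 RPKM in normoxia and 0.198 and 0.266 RPKM in hypoxia. Its difference was 1.46 (adjusted p = 0.0047).

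H19, an imprinted long RNA that also carries miR-675, read 4.49 and 4.68 RPKM in normoxia and 7.61 and 6.4 RPKM in hypoxia at 6 hr. At 48 hr it read 3.23 and 3.57 RPKM in normoxia and 14.2 and 12.4 RPKM in hypoxia, a difference of 1.26 (SE 0.18, adjusted p = 0.0126), and it was the 1 call among 21 tested long RNAs. Of the interferon-inducible genes 2 were called higher among 19 tested (10.5% against 0.511% of all tested genes), whose median was 0.06. ISG20, an exonuclease, read 1.15 and 0.647 RPKM and then 2.73 and 2.04 RPKM in hypoxia, a difference of 1.34 (adjusted p = 0.0333). BST2, known as tetherin, read 0.863 and 0.530 RPKM in normoxia and 0.75 and 0.598 RPKM in hypoxia at 6 hr, and 0.235 and 0.207 RPKM in normoxia and 1.10 and 1.15 RPKM in hypoxia at 48 hr. For BST2 normoxia was therefore lower at 48 hr than at 6 hr, a change of -0.72 that did not pass (adjusted p = 0.0881), and the difference was 1.19 (adjusted p = 0.0217). Without 1 library at a time ISG20 ran from 1.08 to 1.60 and BST2 from 0.99 to 1.39, and neither call held in every fit. HLA-B, an antigen-presenting molecule whose reads can be shared with other HLA genes, had a difference of 1.05 (adjusted p = 0.0136), while HLA-C, chosen after its values were seen, had 0.44 (0.04 to 0.85).

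The remaining called genes lie outside the rule for named genes and are listed to account for the calls. Those above 10 RPKM in hypoxia at 48 hr were LGALS1 (galectin-1, difference 1.03), CKB (brain creatine kinase, 1.20) and FSCN1 (the actin-bundling protein fascin, 1.09). LGALS1 read 63.9 and 56.2 RPKM and then 141 and 128 RPKM in hypoxia, with 41.4 to 53.1 RPKM in normoxia. CKB rose at both times, from 5.35 and 4.52 RPKM in hypoxia at 6 hr to 19.9 and 16.6 RPKM at 48 hr, and FSCN1 from 5.75 and 5.01 RPKM to 15.8 and 15.1 RPKM. The other 15 were expressed lower and had differences of 0.72 to 1.43: SNCB, LOC440461, UPK1A, DPYSL4, GUSBP4, HPCAL4, MGAT3, ACTN3, L1CAM, TSPYL2, CRYM, KIAA1244, KCNJ16, MAPK8IP1 and RALGDS. Several of these are best known from nerve or muscle, such as beta-synuclein (SNCB), the adhesion molecule L1CAM and the muscle actinin ACTN3. Low expression was common among the higher genes, with a median of 1.59 RPKM in normoxia at 6 hr against 5.65 RPKM over all tested genes, and 23 of 57 under 1 RPKM in both normoxia groups. No normoxia library of 6 or 48 hr reached 1 RPKM for these 23, so they passed the filter on low values through hypoxia or the libraries of 6 days.

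PLA2G4A, the phospholipase that releases arachidonic acid, was the 1 longer gene called lower. It read 4.93 and 3.62 RPKM in normoxia and 3.94 and 4.10 RPKM in hypoxia at 6 hr, where the groups overlapped. At 48 hr it read 5.49 and 5.15 RPKM in normoxia and 2.54 and 2.52 RPKM in hypoxia, a difference of -0.88 (SE 0.17, adjusted p = 0.0497). The call was close to the threshold and was lost without any 1 of libraries 3 to 8, with a highest adjusted p of 0.207. At 6 days PLA2G4A was also lower in hypoxia, with 1.72 and 1.77 RPKM against 4.18 and 4.01 RPKM.

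The next lowest genes did not pass. Among them were members of the MTRNR2L family, which are nuclear-encoded relatives of the mitochondrial large ribosomal RNA gene with reading frames for humanin-like peptides. All 10 tested members had a negative difference in all 16 choices of 1 library per group (background 11.8%), with a median of -1.38, and all 10 had an unadjusted p under 0.05, but none was called by limma. Their median effect was 0.40 at 6 hr and -0.92 at 48 hr. MTRNR2L8, the most abundant, read 1781 and 1492 RPKM in normoxia and 2129 and 1897 RPKM in hypoxia at 6 hr, and 2169 and 2157 RPKM in normoxia and 1049.9 and 1149 RPKM in hypoxia at 48 hr. Its difference was -1.28 (-1.93 to -0.63, adjusted p = 0.111), and MTRNR2L6 came closest to the threshold (-1.55, adjusted p = 0.0507). The copies are nearly identical to each other and to the mitochondrial gene, so reads may be shared, their single values are uncertain and they do not count as 10 separate results. Without library 1, MTRNR2L6 (-1.85, adjusted p = 0.0178) and MTRNR2L10 (-1.74, adjusted p = 0.0239) passed. The other lowest genes by the test statistic were TMEM126A (-0.73), HMGN5 (-0.79), COQ2 (-0.54), MLKL (-0.80) and ASPM (-0.57), with adjusted p of 0.0524 to 0.0742.

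Several lists of housekeeping and growth genes lay a little below the median of all genes and held no call by limma. The median difference was -0.23 for 79 cytosolic ribosomal proteins, -0.22 for 76 mitochondrial ribosomal genes, -0.21 for 65 mitosis genes, -0.21 for 31 proteasome genes, -0.19 for 22 genes of the TCA cycle and -0.18 for 63 ribosome biogenesis genes. In the same order, the median effect at 6 hr was 0.22, 0.08, 0.10, 0.08, 0.03 and -0.06. At 48 hr it was -0.01, -0.16, -0.10, -0.08, -0.12 and -0.26, with 0, 5, 1, 0, 0 and 13 members called lower (2.89% of all tested genes were). A negative difference here thus partly holds a positive effect at 6 hr, except for ribosome biogenesis. At an unadjusted p under 0.05 these lists held 5, 14, 15, 2, 2 and 11 lower members and no higher one. The share was 18.4% for the mitochondrial ribosome, 23.1% for mitosis and 17.5% for ribosome biogenesis, against 4.84% of all tested genes, and 6.33%, 6.45% and 9.09% for the cytosolic ribosome, the proteasome and the TCA cycle. With 1 library left out these medians stayed below 0 in each of the 8 fits, from -0.36 to -0.14 for the cytosolic ribosomal proteins and from -0.32 to -0.14 for the mitosis genes. Other such lists had a lower share under that of all genes: 1.92% for DNA replication (median -0.13) and 2.86% for DNA repair (median -0.14). The 15 tested reference genes had a median of -0.06, with 1 member higher and 0 lower at that threshold. Of 28 tested immediate-early genes none was called by limma (8 higher at an unadjusted p under 0.05, 28.6% against 5.94%), with a median of 0.24.

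**Figure D5:**
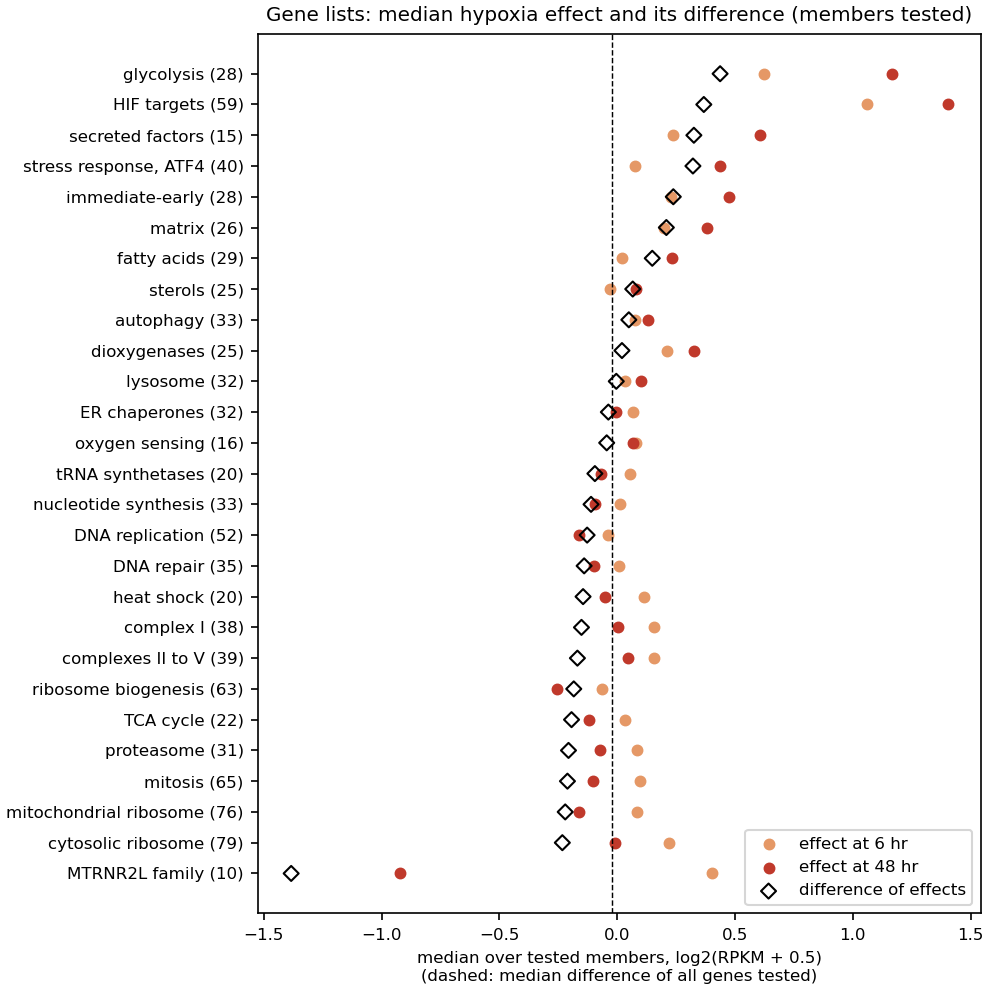
Median over the tested members of 27 gene lists (member numbers in brackets) of the hypoxia effect at 6 hr (orange), the effect at 48 hr (red) and the difference of effects (open diamonds), on the log2(RPKM + 0.5) scale; the dashed line is the median difference of all tested genes, -0.02. Glycolysis (0.44) and HIF targets (0.37) lie highest and the MTRNR2L family (-1.38) lowest.

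The 5 called short RNAs were MIR3143, MIR210, MIR200C and SNORD115-44, higher, and MIR1915, lower. A ribosomal-depleted total RNA library reads the hairpin or its host transcript rather than the mature miRNA, and few reads lay behind the miRNA values. MIR210, whose mature product miR-210-3p is a known HIF-induced miRNA, had 2 and 2 inferred reads in normoxia and 9 and 8 in hypoxia at 6 hr, and 0 and 0 in normoxia and 30 and 27 in hypoxia at 48 hr, a difference of 2.62 (adjusted p = 0.0158). MIR210 was listed at 0 in both normoxia libraries at 48 hr, so no fold is given for that time, and its call held in 2 of the 8 fits without 1 library. The mature sequence is shown for its seed (bases 2 to 8, in capitals), from RefSeq on GRCh38.p14 at chr11:568112-568133, minus strand.
hsa-miR-210-3p: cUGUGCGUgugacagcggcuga
MIR200C had 5 to 16 inferred reads per library and a difference of 1.84 (adjusted p = 0.0136). MIR3143 and MIR1915 rested on at most 3 and 4 inferred reads in any of the 8 libraries, with differences of 2.64 and -1.69. SNORD115-44, one of a cluster of near-identical small nucleolar RNAs, read 32.2 and 31.7 RPKM in normoxia at 6 hr and 9.28 and 8.43 RPKM at 48 hr, with 37.2 and 26 RPKM and then 19.2 and 19 RPKM in hypoxia. Its level was thus lower at 48 hr in both conditions, less so in hypoxia, a difference of 1.11 (adjusted p = 0.0317).

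The libraries of 6 days were not part of the difference of effects and show the same genes later. Of the 57 higher genes 50 were called higher in hypoxia at 6 days, where 23.9% of all tested genes were, 1 was called lower and 6 were not called. Among the 50, CRYM, L1CAM and LOC440461 reached 1 RPKM only in hypoxia at 6 days. They were tested only through those libraries, so the filter favoured their calls at 6 days. The median effect of the 57 was 1.81 at 6 days against 1.68 at 48 hr, larger at 6 days for 27 and smaller for 30. The 7 genes not called higher were RAB4B, CHAC1, BST2, FGF21, GUSBP4, LIF and DDIT3. For CHAC1, FGF21 and DDIT3, of the stress-response list, the level was high in both conditions at 6 days: CHAC1 read 22 and 25.8 RPKM in normoxia and 21.7 and 23.2 RPKM in hypoxia, and DDIT3 47.6 and 49.7 RPKM against 45.9 and 45.2 RPKM. FGF21 read 5.30 and 3.88 RPKM in normoxia and 5.89 and 5.53 RPKM in hypoxia. TXNIP also stood higher in normoxia at 6 days (60.4 and 63.3 RPKM) and at 146 and 141 RPKM in hypoxia, an effect of 1.21 against 2.75 at 48 hr. The differences between 48 hr and 6 days were not tested.

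How many genes were called depended on single libraries. Leaving out 1 library gave 110 calls without library 1, 64 without 2, 29 without 3, 19 without 4, 29 without 5, 26 without 6, 11 without 7 and 42 without 8. All 63 genes kept their direction in these 8 fits. TXNIP, CA9, NPPB, ARRDC4, KISS1R, S100A10, SPAG4, BNIP3L, SESN2 and MIR1915 passed in all 8, 18 genes passed in at least 6, and 5 (RAB4B, LOC440461, FGF21, L1CAM and CRYM) in none. For the 53 genes that lost the call at least once, the highest adjusted p lay between 0.0555 and 0.243.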

How the data were processed

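Total RNA of A2780 cells was sequenced after ribosomal RNA depletion on a SOLiD 5500xl instrument, per the labels' protocols. The authors deposited gene-level RPKM values. Partek 6.6 and the build hg19 are named per the submitters' processing notes, with no role stated; each of aligner, annotation release and strand use was not given in the sources used here. From these RPKM values, log2(RPKM + 0.5) was fitted with limma 3.58.1 (R 4.3.3) as 6 group means over 12 libraries, with an intensity trend in the empirical Bayes step. Genes with at least 1 RPKM in at least 2 libraries were kept. Tests were two-sided, with Benjamini-Hochberg adjustment over all tested genes and a threshold of 0.05. The 4 libraries of 6 days entered the spread and a separate contrast at 6 days, which was added to describe the members later. Reads per library were inferred from steps of the precursor miRNA RPKM values and cover counting only.

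Genes were named by a rule: the 15 highest and lowest called differences among longer genes whose mean reached 2 RPKM in some group (the 10 largest moderated t values where few passed), up to 4 called members per gene list, and 24 index genes. The members and lists were chosen with earlier results of these data known. The fit was tested on simulated data. Other settings changed the pseudocount, filter, libraries fitted, normalization, trend and weights, or left out 1 library. RefSeq sequences are from GRCh38.p14 and were matched by symbol. Computation also used Python 3.11.15, pandas 2.3.3, scipy 1.17.1 and matplotlib 3.10.9. 1 called gene is not reported here by name.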

Additional observations from a re-analysis of the deposited data

Results flagged for a closer look

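The hypoxia effect at 48 hr differed from that at 6 hr, by a test of the difference itself, for 63 genes (limma, adjusted p under 0.05; 0.528% of those tested). The values are differences of effects on the log2(RPKM + 0.5) scale. Those that passed with any 1 of the 8 libraries left out were TXNIP (2.73), CA9 (2.63), NPPB (2.03), ARRDC4 (1.66), KISS1R (1.52), S100A10 (1.46), SPAG4 (1.33), BNIP3L (1.23) and SESN2 (1.18), and among short RNAs MIR1915 (-1.69). Others called higher were SNCB (1.43), NPAS1 (1.38), CHAC1 (1.37), ISG20 (1.34), CTF1 (1.3), HMOX1 (1.29), MMP3 (1.29), H19 (1.26), ALDOC (1.24), UPK1A (1.20), CKB (1.20), BST2 (1.19), LOXL2 (1.15), DPYSL4 (1.11), GUSBP4 (1.10), FSCN1 (1.09), HPCAL4 (1.07), MGAT3 (1.07), HLA-B (1.05), TSC22D3 (1.05) and LGALS1 (1.03). They went on with NOTCH3 (1.03), TFRC (1.01), ENO2 (1.00), LOX (0.98), ACTN3 (0.98), TSPYL2 (0.95), VLDLR (0.94), KIAA1244 (0.93), LIF (0.93), VGF (0.92), RRAGD (0.92), GBE1 (0.91), PFKP (0.89), COL6A1 (0.88), DDIT3 (0.88), KCNJ16 (0.86), SLC2A3 (0.84), MAPK8IP1 (0.80), PAM (0.77), RALGDS (0.72) and PDK1 (0.67). Lost in every fit that left out 1 library were the calls of RAB4B (1.72), LOC440461 (1.21), FGF21 (1.12), L1CAM (0.96) and CRYM (0.95). PLA2G4A (-0.88) was the longer gene called lower. The other short RNAs were MIR3143 (2.64), MIR210 (2.62), MIR200C (1.84) and SNORD115-44 (1.11). MIR1915 and MIR3143 rested on at most 4 and 3 inferred reads in any of the 8 libraries, so their values are uncertain whatever the fits gave.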

How the results depend on the processing

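With 2 libraries a group, the number of calls for the difference of effects was less stable than the directions. The 63 calls (61 higher, 2 lower) became 31 (27 and 4) with no filter on low values, 36 (35 and 1) with the 8 libraries of 6 and 48 hr alone, 29 (28 and 1) with estimated library weights and 97 with trimmed-mean centring, 10 of those lower. The lower count was 1 with a pseudocount of 0.1 or of 1, 6 with at least 5 RPKM and 6 after quantile normalization. Without 1 library at a time it ran from 11 to 110 calls, 10 to 69 higher and 1 to 41 lower, lowest without library 7 and highest without library 1. A group left with 1 library was assumed to vary like the others. Estimated weights gave 168 calls at 6 hr against 428 and 2740 at 48 hr against 1448. For the change with time in hypoxia, 697 calls became 399 with no filter, 347 with 8 libraries and 1225 with weights, and in normoxia 11 became 31 with at least 5 RPKM, 4 with 8 libraries and 3 with weights. The cause was not tested. PLA2G4A lost its call in 12 alternatives, such as a pseudocount of 0.1 (adjusted p = 0.0541). Of the named genes, those that turned direction had not passed: without 1 library HIF1A ran from -0.49 to 0.11, EGLN1 from -0.14 to 0.24, VEGFA from -0.0929 to 0.21, ADM from -0.0821 to 0.16 and KDM3A from -0.0359 to 0.48. They turned without library 1, except ADM (library 7), and EGLN1 also without 7 and VEGFA without 4 or 6. No paired analysis was possible because the groups share no replicate numbers in the labels.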
